A study of Homo sapiens with 12 samples.

Results

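The genes described here are 10 immediate early transcription factor genes of 2 kinds: the AP-1 genes FOS, FOSB, FOSL1, FOSL2, JUN, JUNB and JUND, and the EGR genes EGR1, EGR2 and EGR3. They were taken by name from the gene column of the count table, and all 10 were found among its 29744 rows. All 10 also passed the filter on low counts, which kept 14417 genes, EGR2 through its T1 libraries. RNA was sequenced from 4 human mammary lines of one lineage, with 3 biological replicate libraries per line. The series design describes NeoT (MCFNeoT) as benign hyperplasia, T1 (MCFT1) as atypical hyperplasia and CA1 (MCFCA1) as invasive, names all 4 lines as triple-negative, and has A10 (MCF10A) as the non-tumorigenic line. As background, MCF10A is an immortalised breast epithelial line, NeoT was derived from it with an activated HRAS transgene, and T1 and CA1 came later from NeoT cells grown as xenografts, so the 3 derived lines share the transgene and A10 lacks it. No treatment is given in the labels, and the labels do not state whether cells were growing or starved of serum when they were collected.

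Immediate early genes are transcribed within minutes of a growth factor, stress or adhesion signal, from transcription machinery that is already in the cell, and their mRNAs are short-lived. FOS and JUN family proteins pair through leucine zippers into AP-1 dimers. FOS proteins need a JUN partner to bind DNA, while JUN proteins can also pair with each other. EGR proteins are zinc finger factors that bind GC-rich sites. In epithelial cells many of these genes are switched on by the RAS, RAF, MEK and ERK cascade, which acts on serum response factor and its ETS partners at a promoter element called the CArG box. CREB family factors act on the cyclic AMP response element. FOSL1 and FOSL2 are usually induced later and more durably than FOS, and JUND is the most constant of the JUN genes in many tissues.

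Each library held 18032399 to 35730423 counts. Levels are in CPM, counts scaled to a common library size with TMM factors, given for replicates 1, 2 and 3 in that order. Intervals written with ± are SD over 3 libraries for levels and standard errors for log2 fold changes. A gene was called where the adjusted p of edgeR's quasi-likelihood test (Benjamini-Hochberg over all 14417 genes) was under 0.05. Replicates of a line had Pearson's r of 0.9776 to 0.9891 across genes, against 0.8081 to 0.905 between lines. NeoT replicate 3 had the lowest r with its own line. The share of counts on cytoplasmic rRNA was 7.76% in T1 replicate 1 and 0.954% to 2.18% in the other 11 libraries. HRAS averaged 239.5 ± 21.7 CPM in NeoT, 158 ± 11.9 in T1 and 302 ± 11.9 in CA1, against 64.5 ± 4.59 in A10. The 8 epithelial markers summed to 789.7 to 911 CPM in NeoT libraries, against 6802 to 7219 in T1, 8469 to 9235 in CA1 and 5654 to 6083 in A10. Most of the NeoT sum was KRT8, which was higher there (473 ± 45.2 CPM in NeoT, against 147 ± 13.02 in A10, adjusted p = 6.67e-13), and KRT18, which was not called (329 ± 14.3 CPM in NeoT, against 349.9 ± 16.9 in A10, adjusted p = 0.185). The other 6, KRT5, KRT14, KRT17, EPCAM, CDH1 and TP63, were called lower in NeoT than in A10. CDH1 was at 0.691 CPM in NeoT, and TP63 was at 0, where 3 counts over the line would be 0.0474 CPM. Among markers of other cell types, PTPRC, CD3E and ADIPOQ were at 0 in all 4 lines. The 5 fibroblast markers summed to at most 9.87 CPM and the 3 adipocyte markers to at most 19.5 CPM in any library, both in NeoT. CD68 stood at 159 CPM in NeoT and 83.3 in CA1, and PECAM1 at 85.6 CPM in T1. The part of the lower epithelial markers in the differences of NeoT was not tested. In bulk RNA, fewer cells of a kind and less RNA per cell cannot be told apart.

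Promoter sequence is given first for 4 of the genes. EGR1 and EGR2 are shown for their CArG boxes and JUN for a variant AP-1 site, letters not found in the windows of the other genes. FOS is shown as one example of TGACG, which FOSB, FOSL2, JUNB and JUND held too. The sequences are from RefSeq (GRCh38.p14) and run 5′ to 3′ on the gene's own strand over the 150 bases before its RefSeq start. EGR1 lies at chr5:138465329-138465478 on the plus strand, EGR2 (the third start listed for it) at chr10:62816367-62816516 on the minus strand, FOS at chr14:75278678-75278827 on the plus strand and JUN at chr1:58784048-58784197 on the minus strand. Capitals mark the CArG box, TGACG on either strand (the first letters of the cyclic AMP response element, read as CGTCA on the other strand) and TGACATCA, a variant AP-1 site.
EGR1: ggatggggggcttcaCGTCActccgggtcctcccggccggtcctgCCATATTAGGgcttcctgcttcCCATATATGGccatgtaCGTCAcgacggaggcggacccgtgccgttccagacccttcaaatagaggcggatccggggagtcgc
EGR2: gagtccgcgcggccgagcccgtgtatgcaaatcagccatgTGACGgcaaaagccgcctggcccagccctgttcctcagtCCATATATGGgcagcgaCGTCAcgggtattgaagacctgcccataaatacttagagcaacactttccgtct
FOS: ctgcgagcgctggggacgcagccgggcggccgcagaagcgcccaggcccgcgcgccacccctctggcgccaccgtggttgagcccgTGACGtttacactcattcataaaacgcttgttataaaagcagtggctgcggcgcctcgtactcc
JUN: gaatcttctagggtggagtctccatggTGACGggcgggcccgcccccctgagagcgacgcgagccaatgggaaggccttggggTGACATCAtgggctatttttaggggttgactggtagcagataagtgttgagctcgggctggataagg

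Matches were searched on both strands over the 250 bases before each start, and their positions are counted in bases before the start. EGR1 had a CArG box at 105 and at 83, with TGACG at 135 and 66. EGR2 had a CArG box at 71 between TGACG at 110 and 54, and its other listed starts had no match. FOS had TGACG at 64 and FOSB at 60. FOSL2 had it at 201 and 66 and JUNB at 137. JUN had TGACG at 123 and TGACATCA at 67. JUND had the full TGACGTCA at 200, which holds TGACG on both strands, and a further TGACG at 86. TGANTCA, the classical AP-1 site, was in none of these windows. Of 35116 RefSeq windows of the same length, 1.16% held a CArG box, 21.2% TGACG, 1.65% TGACGTCA, 2.38% TGACATCA and 6.57% TGANTCA. A match describes letters only, and a missing match says only that the letters are not in these 250 bases. No promoter window was used here for FOSL1 or EGR3.

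**Figure D1:**
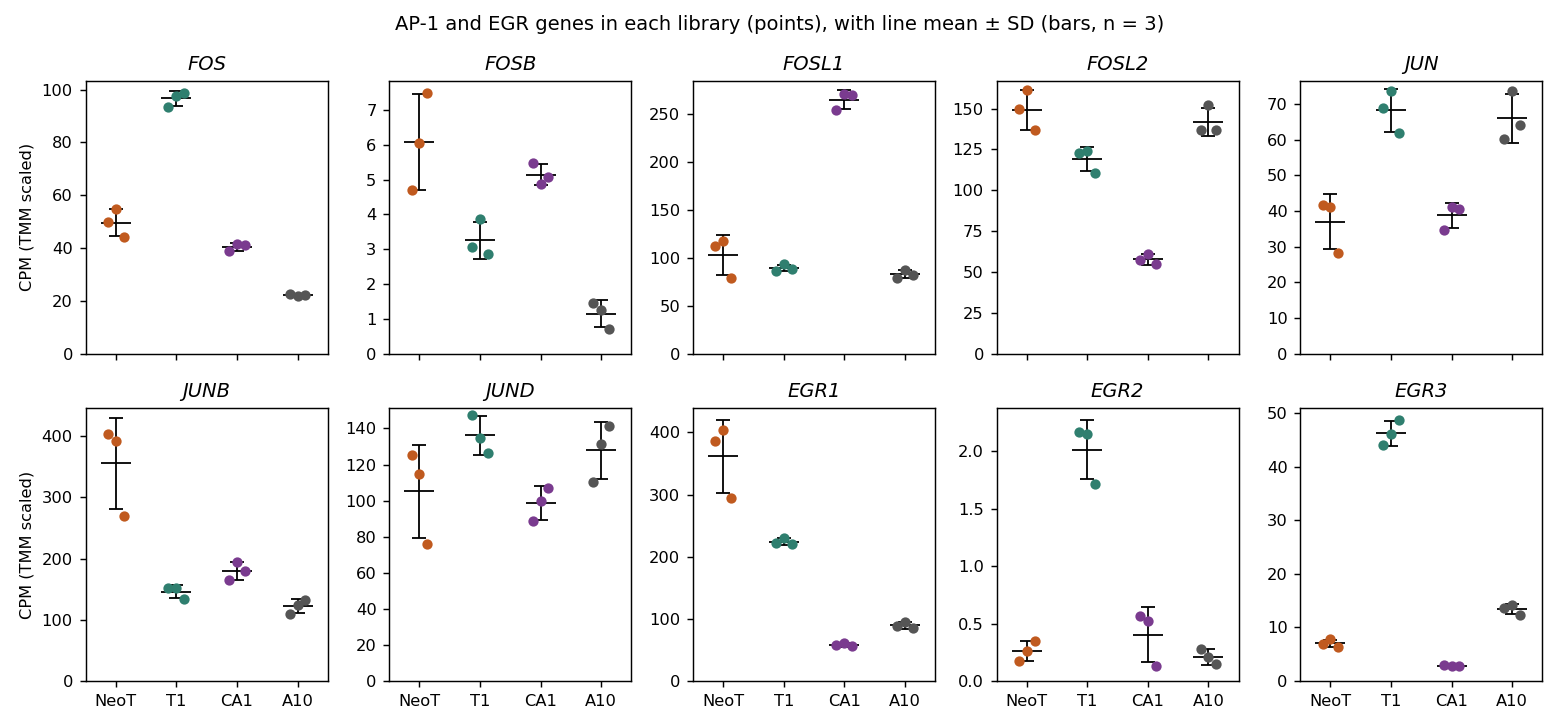
Level of each AP-1 and EGR gene in CPM (vertical axes, linear and starting at 0) in every library (points) of NeoT, T1, CA1 and A10, with the line mean and SD as bars. FOS, EGR2 and EGR3 are highest in T1, EGR1 and JUNB in NeoT and FOSL1 in CA1, and the third NeoT point lies low for JUN, JUNB and JUND.

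No single order of the lines held for the 10 genes. FOS, JUN, JUND, EGR2 and EGR3 had their highest mean in T1, FOSB, FOSL2, JUNB and EGR1 in NeoT, and FOSL1 in CA1. The ratio of the highest to the lowest line was 16.25 for EGR3, 9.66 for EGR2, 6.21 for EGR1 and 5.29 for FOSB, and 1.38 for JUND. In the test of the 4 lines together all 10 were called, where 89.8% of all genes tested were called, so the count itself says little about them.

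FOS (chromosome 14, 75278774 to 75282230, plus strand) encodes the founding AP-1 partner of JUN and is among the fastest genes to respond to serum. It had 49.8, 54.6 and 44.3 CPM in NeoT libraries, 93.5, 97.7 and 98.6 in T1 and 38.8, 41.7 and 41.0 in CA1, against 22.6, 21.8 and 22.1 in A10. No pair of lines overlapped, and the order of T1, NeoT, CA1 and A10 from high to low was called at every step. T1 was 1.95-fold higher than NeoT (log2 0.96 ± 0.08, adjusted p = 4.32e-09). CA1 was 2.38-fold lower than T1 (log2 -1.25 ± 0.08, adjusted p = 2.1e-10). The smallest step was CA1 against NeoT, 1.23-fold lower (log2 -0.29 ± 0.08, adjusted p = 0.00396). Each derived line stood above A10, by log2 1.16 ± 0.08 in NeoT (adjusted p = 4.35e-10), 2.12 ± 0.08 in T1 (1.89e-13) and 0.87 ± 0.08 in CA1 (2.88e-08).

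FOSB (chromosome 19, 45467995 to 45475179, plus strand), a close relative of FOS with a shorter splice form that lacks the transactivation domain, was low in all lines and lowest in A10. Its levels were 4.71, 6.04 and 7.49 CPM in NeoT, 3.06, 3.86 and 2.86 in T1 and 5.46, 4.88 and 5.07 in CA1, against 1.46, 1.27 and 0.723 in A10. The A10 level rests on 109 counts over 3 libraries (95% exact Poisson interval 89.5 to 131, which covers counting error only). All derived libraries were above all A10 libraries. NeoT was 5.20-fold higher than A10 (log2 2.38 ± 0.27, adjusted p = 3.11e-07), T1 2.81-fold (1.49 ± 0.27, 0.000153) and CA1 4.40-fold (2.14 ± 0.27, 1.27e-06). T1 was 1.85-fold lower than NeoT (adjusted p = 0.00439). CA1 was 1.57-fold higher than T1 (log2 0.65 ± 0.25, adjusted p = 0.0319), a call lost without CA1 replicate 1 (adjusted p = 0.0813), 2 (0.052) or 3 (0.0625) or T1 replicate 1 (0.0872) or 3 (0.0979). CA1 and NeoT libraries overlapped (log2 -0.24 ± 0.25, adjusted p = 0.4096).

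FOSL1 (chromosome 11, 65892049 to 65900573, minus strand) encodes FRA1, the FOS family protein most often linked to invasive growth of carcinoma cells. It had 113, 118 and 79.2 CPM in NeoT, 86.7, 93.5 and 88.6 in T1 and 254, 271 and 270.3 in CA1, against 79.6, 87.3 and 82.7 in A10. CA1 stood alone at the top, and the libraries of the other 3 lines overlapped. CA1 was 3.19-fold higher than A10 (log2 1.67 ± 0.11, adjusted p = 1.77e-10), 2.57-fold higher than NeoT (1.36 ± 0.11, 2.84e-09) and 2.96-fold higher than T1 (1.57 ± 0.11, 8.445e-10). NeoT was 1.24-fold higher than A10 (log2 0.31 ± 0.11, adjusted p = 0.0135). That call was lost without A10 replicate 1 (adjusted p = 0.0595), NeoT replicate 1 (0.0677) or NeoT replicate 2 (0.0999). T1 did not pass against A10 (log2 0.11 ± 0.11, adjusted p = 0.415) or against NeoT (-0.21 ± 0.11, 0.094), but without NeoT replicate 3 the second was -0.36 with an adjusted p of 8.66e-06.

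FOSL2 (chromosome 2, 28392448 to 28417312, plus strand), which encodes FRA2, differed most in CA1, where it was lower. The levels were 149.9, 161 and 137 CPM in NeoT, 123, 124 and 111 in T1 and 57.5, 61.3 and 54.7 in CA1, against 137, 152 and 137 in A10. Every CA1 library lay below every other library. CA1 was 2.45-fold lower than A10 (log2 -1.29 ± 0.08, adjusted p = 4.76e-11), 2.58-fold lower than NeoT (-1.37 ± 0.08, 1.88e-11) and 2.06-fold lower than T1 (-1.04 ± 0.08, 1.94e-09). T1 was 1.25-fold lower than NeoT (adjusted p = 0.00109) and 1.19-fold lower than A10 (log2 -0.25 ± 0.08, adjusted p = 0.0103). The T1 against A10 call was lost without A10 replicate 2 (adjusted p = 0.0603) or T1 replicate 3 (0.0651). NeoT and A10 were not told apart (log2 0.07 ± 0.08, adjusted p = 0.396).

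JUN (chromosome 1, 58780788 to 58784327, minus strand), the strongest activator of its family and a substrate of the JNK kinases, stood at a pair of levels. It had 41.8, 41.2 and 28.1 CPM in NeoT, 68.9, 73.8 and 61.9 in T1 and 34.6, 41.0 and 40.7 in CA1, against 60.2, 73.6 and 64.1 in A10. All libraries of NeoT and CA1 lay below all libraries of T1 and A10. NeoT was 1.77-fold lower than A10 (log2 -0.82 ± 0.13, adjusted p = 1.69e-05) and CA1 1.70-fold lower (-0.76 ± 0.13, 3.94e-05). T1 was 1.84-fold higher than NeoT (0.88 ± 0.13, 9.53e-06), and CA1 was 1.76-fold lower than T1 (-0.81 ± 0.13, 2.78e-05). T1 against A10 (log2 0.05 ± 0.12, adjusted p = 0.758) and CA1 against NeoT (0.06 ± 0.13, 0.689) were not called, and both changed sign when single libraries were left out.

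JUNB (chromosome 19, 12791496 to 12793315, plus strand), which often restrains JUN and is itself strongly inducible, was highest in NeoT. It reached 404, 392 and 269.8 CPM in NeoT, 152, 151 and 134 in T1 and 165, 194 and 179 in CA1, against 109, 124 and 132 in A10. Even NeoT replicate 3 lay above every library of the other lines. NeoT was 2.92-fold higher than A10 (log2 1.55 ± 0.13, adjusted p = 7.17e-08), and T1 and CA1 were 2.44-fold (adjusted p = 5.71e-07) and 1.98-fold (8.77e-06) lower than NeoT. CA1 was 1.47-fold higher than A10 (log2 0.56 ± 0.13, adjusted p = 0.00134). The libraries of T1 lay above those of A10 and below those of CA1 without overlap, yet neither step was called (T1 against A10 log2 0.26 ± 0.13, adjusted p = 0.106; CA1 against T1 0.30 ± 0.13, 0.0552). In a fit to only the 6 libraries compared, both were (adjusted p = 0.00272 and 7.63e-05), as they were without NeoT replicate 3 (0.0018 and 0.000393).

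JUND (chromosome 19, 18279760 to 18281622, minus strand), the JUN gene with the most even expression, had the narrowest range. The levels were 125, 115 and 76.1 CPM in NeoT, 148, 134 and 126 in T1 and 88.4, 99.9 and 107 in CA1, against 111, 131 and 142 in A10. CA1 libraries lay below those of T1 and A10, while NeoT libraries were spread over most of that range. CA1 was 1.38-fold lower than T1 (log2 -0.47 ± 0.16, adjusted p = 0.0198) and 1.30-fold lower than A10 (-0.37 ± 0.16, 0.0467). The first call was lost without CA1 replicate 1 (adjusted p = 0.071) or T1 replicate 1 (0.0627). The second was lost in 7 of 12 such fits, with an adjusted p of 0.108 without A10 replicate 2, 0.147 without A10 replicate 3, 0.143 without CA1 replicate 1, 0.0881 without CA1 replicate 2, 0.0591 without NeoT replicate 2, 0.0592 without T1 replicate 2 and 0.0528 without T1 replicate 3. T1 against NeoT missed the threshold (log2 0.37 ± 0.16, adjusted p = 0.0517) and was called without NeoT replicate 1 (0.0144) or A10 replicate 1 (0.046), by DESeq2 (0.0189) and by limma-voom (0.0499). With all libraries, no neighbours in its order of T1, A10, NeoT and CA1 were told apart. NeoT was called lower than A10 without NeoT replicate 1 (log2 -0.42, adjusted p = 0.0346), and CA1 lower than NeoT without NeoT replicate 3 (log2 -0.28, adjusted p = 0.0189).

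EGR1 (chromosome 5, 138465490 to 138469315, plus strand) encodes the most widely used EGR factor, which responds to ERK signalling. It had 386, 405 and 294 CPM in NeoT, 222, 230.1 and 219.9 in T1 and 57.2, 61.6 and 55.8 in CA1, against 87.9, 95.4 and 85.3 in A10. No pair of lines overlapped, in the order NeoT, T1, A10 and CA1 from high to low, and each step of it was called. NeoT was 4.04-fold higher than A10 (log2 2.01 ± 0.09, adjusted p = 1.17e-12). T1 was 1.61-fold lower than NeoT (log2 -0.69 ± 0.09, adjusted p = 2.35e-06) but above A10 (1.32 ± 0.09, 9.41e-10). CA1 was 6.21-fold lower than NeoT (-2.64 ± 0.10, 2.49e-14), 3.85-fold lower than T1 (-1.95 ± 0.10, 5.37e-12) and 1.54-fold lower than A10 (-0.62 ± 0.09, 1.19e-05).

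EGR2 (chromosome 10, 62811996 to 62919900, minus strand), known best from hindbrain and Schwann cells, was near the limit of detection outside T1. It had 4, 6 and 6 counts in NeoT libraries, 61, 68 and 42 in T1 and 10, 12 and 3 in CA1, against 11, 5 and 4 in A10. Summed over a line these were 16 counts in NeoT (95% exact Poisson interval 9.15 to 26), 171 in T1 (146 to 199) and 25 in CA1 (16.2 to 36.9), against 20 in A10 (12.2 to 30.9). T1 libraries stood above all others at 2.17, 2.15 and 1.72 CPM. T1 was 9.29-fold higher than A10 (log2 3.22 ± 0.57, adjusted p = 0.00011) and 7.74-fold higher than NeoT (2.95 ± 0.58, 0.000201), and CA1 was 5.05-fold lower than T1 (-2.34 ± 0.55, 0.001255). EGR2 passed the filter on low counts through T1, the line where it was high. In the fit to only NeoT and A10 libraries it was not tested. Its calls against T1 are therefore not independent of the filter. With no filter, T1 against A10 was at log2 3.21 (edgeR adjusted p = 6.18e-05). Differences among NeoT, CA1 and A10 were not detectable at this depth and replicate spread (adjusted p 0.211 to 0.734).

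EGR3 (chromosome 8, 22687659 to 22693302, minus strand), itself a target of EGR1 in several cell types, had the widest range of the 10 genes. The levels were 6.89, 7.76 and 6.33 CPM in NeoT, 43.9, 46.01 and 48.6 in T1 and 3.04, 2.76 and 2.72 in CA1, against 13.7, 14.1 and 12.3 in A10. All 4 lines were separate, in the order T1, A10, NeoT and CA1, and each step of it was called. NeoT was 1.91-fold lower than A10 (log2 -0.93 ± 0.11, adjusted p = 7.85e-07), the opposite side from EGR1 in the same comparison. T1 was 6.57-fold higher than NeoT (2.72 ± 0.11, 1.63e-13). CA1 was 16.28-fold lower than T1 (-4.03 ± 0.13, 9.22e-15), 2.48-fold lower than NeoT (-1.31 ± 0.14, 9.43e-08) and 4.72-fold lower than A10 (-2.24 ± 0.13, 1.82e-11).

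**Figure D2:**
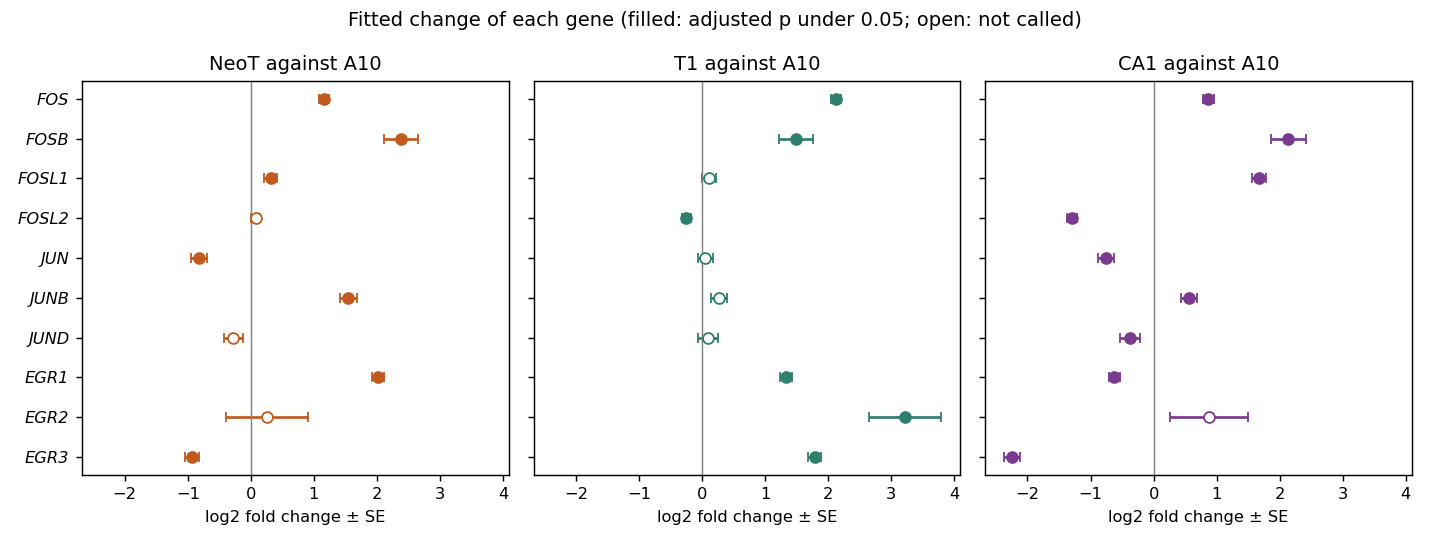
Fitted log2 fold change (horizontal axes) with its standard error for each gene in NeoT, T1 and CA1, each against A10. Filled points have an adjusted p under 0.05 and open points do not. FOS and FOSB lie right of 0 in all panels, while EGR1 and EGR3 lie right of 0 in T1 and left of it in CA1.

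Taken by comparison, NeoT against A10 called 7 of the 10 genes, where 70.4% of all genes were called. FOS, FOSB, FOSL1, JUNB and EGR1 were higher (5 genes, background 33.7%) and JUN and EGR3 lower (2 genes, background 36.7%). The median log2 fold change was 0.29 over the 10 genes and -0.04 over all genes. In T1 against A10, 6 of 10 were called, at a background of 51.9%. FOS, FOSB, EGR1, EGR2 and EGR3 were higher (5 genes, background 26.0%) and FOSL2 was lower (1 gene, background 25.9%). EGR2 passed the filter through T1, so its calls here and in the other comparisons with T1 are not independent of the filter. The median was 0.79, against -0.01 over all genes. In CA1 against A10, 9 were called, at a background of 70.9%, with FOS, FOSB, FOSL1 and JUNB higher (4 genes, background 34.4%) and FOSL2, JUN, JUND, EGR1 and EGR3 lower (5 genes, background 36.5%). The median was 0.09, against -0.02 over all genes. These 3 comparisons share the A10 libraries.

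In the steps between derived lines, T1 against NeoT called 8 genes at a background of 67.4%. FOS, JUN, EGR2 and EGR3 were higher (4 genes, background 35.0%) and FOSB, FOSL2, JUNB and EGR1 lower (4 genes, background 32.4%). CA1 against NeoT called 6 at a background of 66.4%, of which only FOSL1 was higher (1 gene, background 33.8%) and FOS, FOSL2, JUNB, EGR1 and EGR3 were lower (5 genes, background 32.7%). CA1 against T1 called 9 at a background of 62.2%. FOSB and FOSL1 were higher (2 genes, background 30.4%), and FOS, FOSL2, JUN, JUND, EGR1, EGR2 and EGR3 were lower (7 genes, background 31.9%), with a median log2 fold change of -0.93, against -0.01 over all genes. The counts called, 6 to 9 of 10, compare with 51.9% to 70.9% of all genes and were not tested as a group, so nothing particular to these genes is read from them. Over the 6 comparisons 45 of 60 differences were called. Without NeoT replicate 3, 7, 9 and 7 genes were called in NeoT against A10, T1 against NeoT and CA1 against NeoT. That fit also changed comparisons without NeoT libraries: T1 against A10 called 7 (6 with all libraries) and CA1 against T1 called 10 (9). CA1 against A10 stayed at 9. Without T1 replicate 1 the counts were 6, 8 and 7 in T1 against A10, T1 against NeoT and CA1 against T1, the last having lost FOSB and JUND.

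The makeup of each family was compared on CPM per kilobase, with the length of one GENCODE transcript per gene. FOSL1 held the largest share of the FOS family in every line, 56.6% ± 3.54 in NeoT, 45.8% ± 0.488 in T1 and 84.7% ± 0.314 in CA1, against 61.1% ± 0.618 in A10 (SD, n = 3). FOS followed in T1 with 38.2% ± 1.01 and held 9.996% ± 0.0418 in CA1. FOSL2 held 4.60% ± 0.271 in CA1, against 25.9% ± 0.584 in A10. The summed FOS family level was 109 ± 16.3 CPM per kb in NeoT, 117 ± 3.38 in T1 and 188 ± 6.52 in CA1, against 81.6 ± 3.38 in A10. In CA1 that sum was the highest of the 4 although FOS and FOSL2 were each lower there than in T1.

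In the JUN family, JUNB held 74.6% ± 0.726 of the summed level per kilobase in NeoT, 46.4% ± 0.707 in T1 and 60.7% ± 1.67 in CA1, against 43.4% ± 0.686 in A10. JUN held the smallest share in every line, 3.996% ± 0.0655 in NeoT, 11.2% ± 0.588 in T1 and 6.74% ± 0.118 in CA1, against 12.1% ± 1.12 in A10. NeoT replicate 3, whose JUN genes were low, had shares like its line: 3.92% to 4.04% of the family was JUN in the 3 libraries. EGR1 held most of the EGR family, 98.5% ± 0.169 in NeoT, 86.3% ± 0.615 in T1 and 95.9% ± 0.522 in CA1, against 90.04% ± 0.404 in A10. The EGR3 share was 1.39% ± 0.130 in NeoT, 12.9% ± 0.714 in T1 and 3.40% ± 0.276 in CA1, against 9.74% ± 0.334 in A10. The summed EGR level was 117 ± 19.0 CPM per kb in NeoT, 82.8 ± 1.65 in T1 and 19.3 ± 1.02 in CA1, against 31.7 ± 1.86 in A10. The order of genes within a family depends on the transcript length: with the shortest coding transcript FOS in NeoT would be 199 CPM per kb, against 23.0 with the one used.

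**Figure D3:**
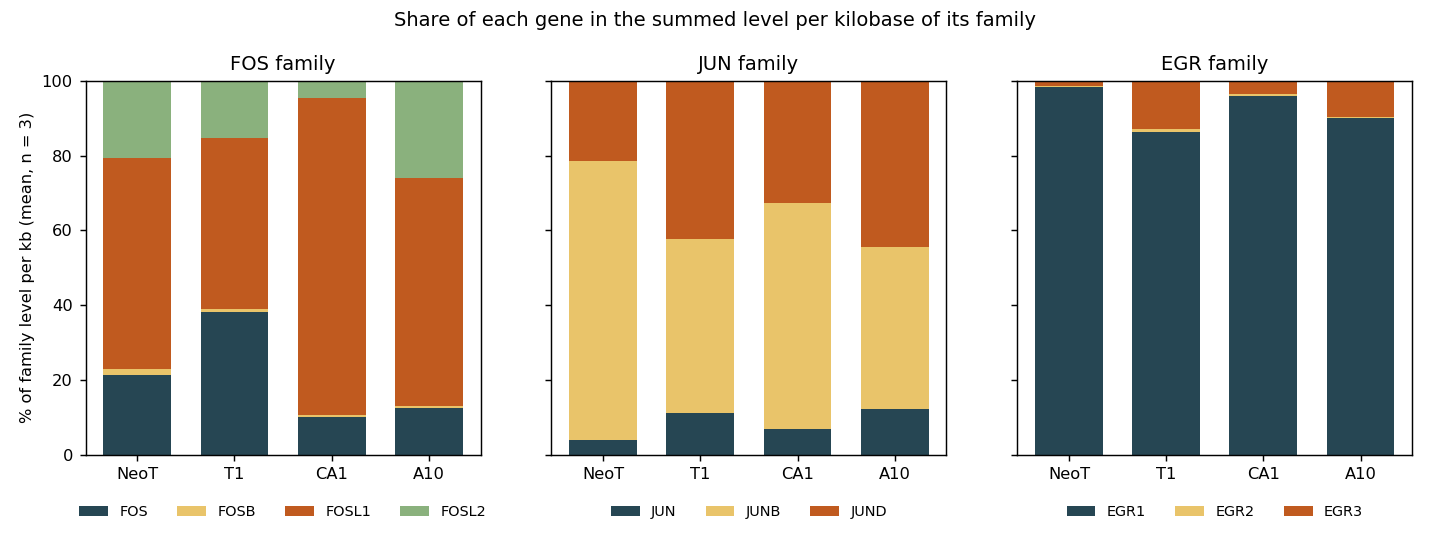
Share of each gene (stacked bars, % of the summed CPM per kilobase, mean of 3 libraries) within the FOS, JUN and EGR families in NeoT, T1, CA1 and A10. FOSL1 fills 84.7% of the FOS bar in CA1, JUNB 74.6% of the JUN bar in NeoT and EGR3 12.9% of the EGR bar in T1.

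The biological coefficient of variation, the spread between replicates of a line beyond counting error, was 6.77% for FOS, 7.005% for FOSL2, 8.29% for EGR3, 8.44% for EGR1 and 9.26% for FOSL1. It was 10.7% for JUN, 11.2% for JUNB and 13.3% for JUND, and 18.8% and 32.1% for the low genes FOSB and EGR2. The median was 9.90% over all genes tested and 8.11% over the 9337 with at least 10 CPM. FOS and FOSL2 lay below both medians, and 5 of the 10 genes lay above both. In NeoT replicate 3, 8 of the 10 genes lay below the line mean, with a median deviation of -0.22 on the log2 scale. Over all genes of that library the median deviation was 0 and the SD was 0.417. The count was also 8 in T1 replicate 3 (median -0.105) and in A10 replicate 3 (-0.0432), and 5 in CA1 replicate 3. In replicate 2 it was 0 in NeoT, 2 in T1, 2 in CA1 and 1 in A10. The median deviations of the 10 genes there were 0.154, 0.0602, 0.0635 and 0.0759. Whether these genes move together by replicate number was not tested. In NeoT replicate 3, JUND deviated by -0.43, JUNB and JUN by -0.37 each and FOSL1 by -0.36, while FOSB lay above the mean by 0.32 and EGR2 by 0.36.

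Likeness of pattern was measured as the root mean square difference between log2 line means, each gene centred on its own mean over the 4 lines, so it rests on 4 points a gene and carries no test. Candidates were 9183 protein-coding genes of at least 10 CPM. FOS was nearest to NTN4 (0.17) and CMTM4 (0.18), and FOSB to MEGF6 (0.09) and PEX11A (0.09). RASA2 (0.04) and MICAL2 (0.08) were nearest to FOSL1. For RASA2 the levels were 20.5 CPM in NeoT, 16.9 in T1 and 50.6 in CA1, against 16.4 in A10. MMP15 (0.02) and ZFHX3 (0.03) were nearest to FOSL2. JUN lay nearest to SUCLA2 (0.02) and CLN3 (0.03), JUNB to LARS (0.02) and SLC19A2 (0.04), and JUND to ATP11A and NCOA2 (0.03 each).

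EGR genes had no candidate as near, though for EGR1 the difference was close to that for FOS. EGR3, EGR2 and EGR1 also had the widest ratios of highest to lowest line (16.25, 9.66 and 6.21), and EGR2 had few counts outside T1. The part of either in these differences was not tested. EGR1 was nearest to MMP2 (0.19) and STK36 (0.24), and MMP2 had 143.5 CPM in NeoT, 93.98 in T1 and 24.8 in CA1, against 27.7 in A10. CLCF1 (0.39) and TLR6 (0.41) were nearest to EGR2. EGR3 was nearest to EPGN (0.30) and SPTLC3 (0.38). EPGN, which encodes an EGF receptor ligand, had 23.4 CPM in NeoT, 122 in T1 and 9.51 in CA1, against 62.8 in A10. Among the 10 genes themselves, JUN and JUND were nearest to each other (0.23), as were FOSB and JUNB (0.59) and FOS and EGR2 (0.60). FOSL2 was nearest to JUND (0.48), FOSL1 to FOSB (0.80), EGR1 to FOSL2 (0.76) and EGR3 to EGR2 (1.00).

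The genes around each locus were examined over 5 Mb on each side. For FOSB, the median log2 fold change of 209 tested genes in the window was 0.60 in NeoT against A10 and 0.59 in T1 against A10, where FOSB itself stood at 2.38 and 1.49. In CA1 against A10 the window median was 0.06 and FOSB was at 2.14. Between derived lines the window median was -0.10 in T1 against NeoT, -0.64 in CA1 against NeoT and -0.48 in CA1 against T1, where FOSB stood at -0.89, -0.24 and 0.65. For the other 9 genes, the window medians lay between -0.29 and 0.37 over the 6 comparisons, with 19 tested genes around EGR2 up to 187 around FOSL1. In the annotation JUNB shares 259 of its 1820 exon bases (14.2%) with HOOK2 on the opposite strand, and EGR3 shares 164 bases (3.38%) with a noncoding transcript. Whether counting used strand is not given in the sources used here, so reads from those stretches cannot be assigned. HOOK2 had 18 CPM in NeoT, 47.8 in T1 and 51.1 in CA1, against 28.7 in A10, and was thus lowest where JUNB was highest.

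Other immediate early genes were spread in both directions. For the counts of this and the next 5 gene lists, the shares of all genes called higher and lower than A10 were 33.7% and 36.7% in NeoT, 26.0% and 25.9% in T1, and 34.4% and 36.5% in CA1. No list was tested as a group. Of 28 listed genes 26 were tested, and 13 were higher and 9 lower in NeoT than in A10 (median log2 fold change 0.58, against -0.04 over all genes). In T1, 11 were higher and 6 lower (0.20, against -0.01), and in CA1, 10 were higher and 11 lower (0.02, against -0.02). DUSP1, a phosphatase that switches off MAP kinases, had 725 ± 2.99 CPM in NeoT, 57.8 ± 3.40 in T1 and 18.4 ± 0.560 in CA1, against 94.7 ± 2.63 in A10. Like EGR1 it was highest in NeoT and lowest in CA1, but it was 1.64-fold lower in T1 than in A10 (adjusted p = 1.18e-08), where EGR1 was higher. HBEGF, an EGF receptor ligand, had 3.69 ± 0.468 CPM in NeoT, 221 ± 1.36 in T1 and 451 ± 11.4 in CA1, against 67.4 ± 1.56 in A10. It was 18.4-fold lower in NeoT than in A10 (adjusted p = 4.93e-18), and 3.28-fold and 6.69-fold higher in T1 and CA1. RHOB, a small GTPase gene, had 208.5 ± 15.3 CPM in NeoT, 63.4 ± 0.614 in T1 and 87.9 ± 1.30 in CA1, against 11.1 ± 0.690 in A10. PHLDA1 was highest in CA1, with 709.5 ± 29.04 CPM in NeoT, 831 ± 29.3 in T1 and 2313 ± 6.89 in CA1, against 385 ± 11.98 in A10, and both genes were called higher in all 3 derived lines.

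**Figure D4:**
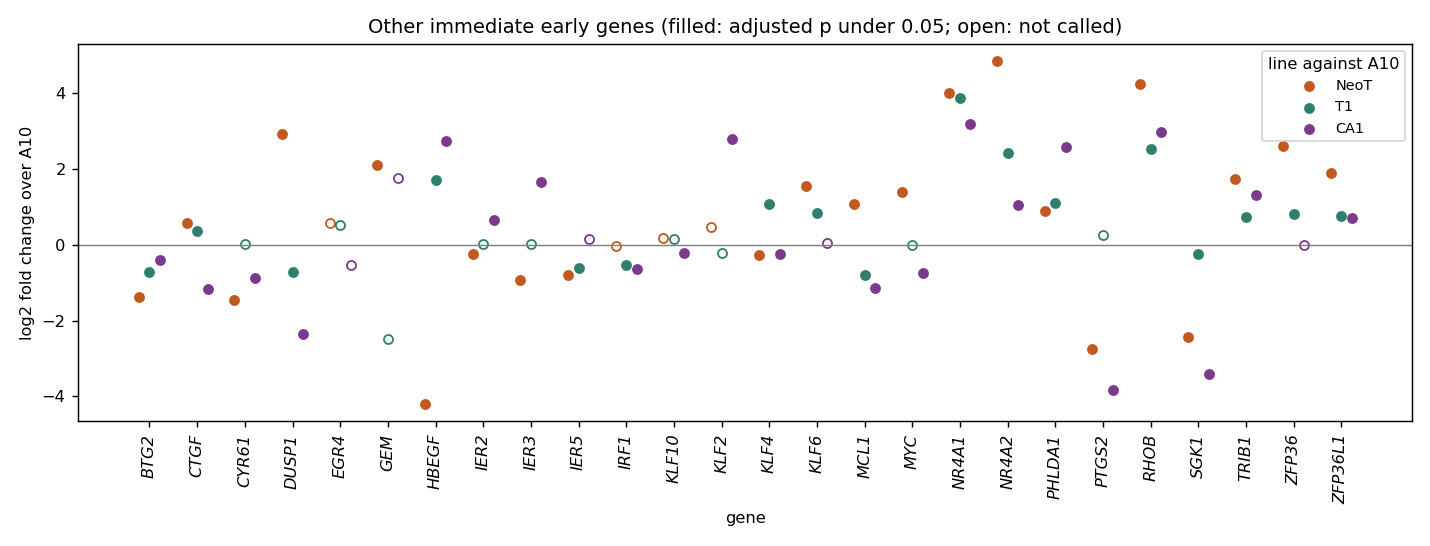
Fitted log2 fold change (vertical axis) of the 26 other immediate early genes tested, in NeoT, T1 and CA1, each against A10. Filled points have an adjusted p under 0.05. Points lie on both sides of 0 in each line, and DUSP1 and HBEGF lie on opposite sides in NeoT and CA1.

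Among 11 tested partners of FOS and JUN proteins, 6 were higher and 1 lower in NeoT than in A10, 5 higher and 3 lower in T1, and 5 higher and 3 lower in CA1, with median log2 fold changes of 0.62, -0.02 and 0.28. ATF3, a stress-induced partner that often represses, had 6.23 ± 0.583 CPM in NeoT, 17.4 ± 1.496 in T1 and 61.2 ± 3.83 in CA1, against 3.21 ± 0.327 in A10. It was 18.9-fold higher in CA1 than in A10 (adjusted p = 1e-15). MAF, a basic leucine zipper factor, had 0.208 ± 0.0694 CPM in NeoT, 1.71 ± 0.604 in T1 and 15.2 ± 1.48 in CA1, against 3.02 ± 0.465 in A10. MAFG, a small MAF gene, was 1.95-fold higher in NeoT (adjusted p = 1.27e-08), 1.19-fold in T1 (0.0243) and 1.59-fold in CA1 (1.62e-06).

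Factors that act on these promoters were counted next. Of 9 genes for SRF, its ETS and MRTF partners and CREB, 2 were higher and 5 lower in NeoT, 0 higher and 6 lower in T1, and 0 higher and 5 lower in CA1, with medians of -0.36, -0.40 and -0.49 on the log2 scale, against -0.04, -0.01 and -0.02 over all genes. The shares of all genes called lower were 36.7%, 25.9% and 36.5%, and nothing particular to these 9 genes is read from the counts. SRF had 34.7 ± 5.50 CPM in NeoT, 54.8 ± 1.54 in T1 and 50.1 ± 3.53 in CA1, against 72.6 ± 1.59 in A10. MKL1, the MRTF-A coactivator, was 3.33-fold lower in NeoT (adjusted p = 2.36e-11), 1.21-fold in T1 (0.0202) and 1.76-fold in CA1 (5.04e-07). ELK4, an ETS partner of SRF, was 1.55-fold, 1.98-fold and 1.70-fold lower (adjusted p = 1.49e-05, 1.19e-07 and 1.73e-06). ELK3, another ETS partner, was 1.22-fold higher in NeoT (0.0025) and lower in T1 (1.44-fold, 1.01e-05) and CA1 (1.91-fold, 3.1e-09). EGR1 and FOS were higher in NeoT and T1 than in A10, and the SRF transcript was lower in both. In CA1 the SRF transcript was lower too (log2 -0.53), with FOS higher and EGR1 lower. SRF protein and activity were not measured, and the part of SRF in these differences was not tested.

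Of 14 genes for ERK, JNK and p38 kinases and those next to them, 4 were higher and 9 lower in NeoT than in A10, 0 higher and 4 lower in T1, and 3 higher and 7 lower in CA1, with median log2 fold changes of -0.51, 0.02 and -0.15. MAPK3 (ERK1) had 49.4 ± 5.85 CPM in NeoT, 24.7 ± 3.32 in T1 and 57.5 ± 4.43 in CA1, against 20.65 ± 1.35 in A10. It was 2.40-fold higher in NeoT than in A10 (adjusted p = 8.22e-09) and 2.79-fold higher in CA1 (8.93e-10), and did not pass in T1 (0.0562). MAP2K1, the MEK1 kinase gene, was 1.85-fold lower in NeoT (adjusted p = 5.01e-10), 1.11-fold in T1 (0.0428) and 2.62-fold in CA1 (1.04e-12). RPS6KA1, a kinase below ERK, was lower in NeoT (2.25-fold, 5.17e-11) and CA1 (1.25-fold, 0.000422) and was not called in T1 (log2 0.13, adjusted p = 0.127). Kinase activity was not measured in these libraries.

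Of 5 genes for EGR corepressors and ligases that mark AP-1 proteins for degradation, 1 was higher and 3 lower in NeoT than in A10, 0 higher and 4 lower in T1, and 1 higher and 3 lower in CA1, with median log2 fold changes of -0.79, -0.35 and -0.30. NAB2, an EGR corepressor that EGR1 itself induces, had 47.3 ± 10.5 CPM in NeoT, 19.1 ± 0.490 in T1 and 23.1 ± 4.04 in CA1, against 33.7 ± 4.003 in A10. It was 1.41-fold higher in NeoT (adjusted p = 0.0063) and 1.76-fold lower in T1 (0.000205), and EGR1 was higher in both. In CA1 it was 1.45-fold lower (0.00426), and EGR1 was lower there too. RFWD2 (the JUN ligase COP1) was 2.15-fold lower in NeoT (9.36e-09), 1.28-fold in T1 (0.00399) and 1.27-fold in CA1 (0.00341). FBXW7, also a JUN ligase subunit, was 2.16-fold, 1.28-fold and 1.23-fold lower (5.25e-07, 0.0257 and 0.0439). ITCH, a ligase for JUN and JUNB, was 1.82-fold higher in CA1 (1.54e-08), 1.36-fold lower in T1 (0.000119) and not called in NeoT (0.237).

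Of 21 listed AP-1 target genes 19 were tested, and 12 were higher and 6 lower in NeoT than in A10 (median log2 fold change 0.66, against -0.04 over all genes), at backgrounds of 33.7% and 36.7%. In T1, 12 were higher and 5 lower (0.67, against -0.01), at 26.0% and 25.9%, and in CA1, 9 were higher and 7 lower (0.38, against -0.02), at 34.4% and 36.5%. TIMP1, an inhibitor of matrix proteases, had 1812 ± 65.1 CPM in NeoT, 198 ± 4.43 in T1 and 139 ± 1.34 in CA1, against 294 ± 16.7 in A10. PLAU, which encodes the protease urokinase, had 20.2 ± 3.46 CPM in NeoT, 139.7 ± 10.8 in T1 and 476 ± 14.8 in CA1, against 413 ± 4.17 in A10. IL8, the chemokine CXCL8, was 1.40-fold higher in NeoT (adjusted p = 3.24e-05) and lower in T1 (7.73-fold, 6.76e-15) and CA1 (4.55-fold, 1.15e-13).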

How the data were processed

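RNA from 12 libraries (4 lines, 3 biological replicates each) was DNase-treated and sequenced from NEBNext Ultra libraries, per the labels' protocols. The deposited table holds estimated counts per gene (expected counts), not scaled between libraries. The name of the table points to Salmon. GRCh38 and limma are named without a role per the submitters' processing notes. Versions, annotation and strand setting are not given in the sources used here. Of 29744 rows 10297 had no count, and 10.07% of values were not whole. They were rounded, by at most 0.5.

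Genes were filtered with filterByExpr on the line, scaled with TMM and fitted to all 12 libraries with edgeR 4.0.16 (robust quasi-likelihood, a mean per line, R 4.3.3), which gave 6 two-sided pairwise tests and 1 test over the 4 lines. The p-values set differences between line means against the spread between replicate libraries. Each stage is a single line, so they say nothing about other lines of that stage. A standard error is the log2 fold change divided by the root of its F statistic. The genes and the 6 lists (89 genes), with 5 marker lists, were chosen with earlier results of these data known. From each of the 6 lists, the 4 genes with the smallest adjusted p over the 4 lines were named, with all 10 members, HRAS and the nearest genes by pattern. Of the genes so chosen, 3 are not reported here. Lengths and gene coordinates are from GENCODE 29. Promoter windows and the windows around each locus use RefSeq positions (GRCh38.p14). The RefSeq start can lie inside the GENCODE span, as for FOS and JUN. The labels number the biological replicates without saying whether equal numbers pair the libraries. Deviations of log2 CPM from the line mean were correlated between same-numbered libraries of different lines. These 18 correlations lay between -0.069 and 0.088, and 0 were over 0.1. They are over all 14417 genes tested and do not settle pairing for the 10 genes described. The settings varied were the scaling (RLE, upper-quartile), the filter (none, or 1 CPM in 3 libraries) and the test, with DESeq2 1.42.0 or limma-voom (limma 3.58.1). Fits also used only the libraries compared, a replicate block, each library left out, no cytoplasmic rRNA rows, and neither of the libraries that stood apart (T1 replicate 1, NeoT replicate 3). Tables were built in Python 3.11.15 with pandas 2.3.3 and numpy 2.4.6, intervals came from scipy 1.17.1, and plots from matplotlib 3.10.9.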

Additional observations from a re-analysis of the deposited data

How the results depend on the processing

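Of 60 differences (10 genes in 6 comparisons), 45 kept their direction and their side of the threshold under all settings run. Leaving out 1 library gave 720 values: 687 unchanged in direction and call, 19 calls lost, 9 gained and 5 turned. The other settings gave 597 values: 576 unchanged, 6 lost, 13 gained and 2 turned. All that turned were uncalled differences of JUN and JUND. JUN in T1 against A10 was at -0.0126 without A10 replicate 1 and -0.0102 without T1 replicate 2, and JUND at -0.0044 without A10 replicate 1; leaving out any library, JUN ran from -0.0126 to 0.1345 and JUND from -0.0044 to 0.1709. In CA1 against NeoT, JUN was at -0.0087 with upper-quartile scaling, -0.0930 without NeoT replicate 3 and -0.1112 without that library and T1 replicate 1, and JUND at 0.0448 without NeoT replicate 1. There JUN reached 0.1571 without NeoT replicate 1, and JUND ran down to -0.2979 without both libraries that stood apart. The cause was not tested. The numbers of the 10 genes called ran from 6 to 7 in NeoT against A10, 5 to 7 in T1 against A10, 8 to 9 in CA1 against A10, 8 to 9 in T1 against NeoT, 6 to 7 in CA1 against NeoT and 7 to 10 in CA1 against T1 with 1 library left out, and were 9 or 10 in the test of the 4 lines together. Beside the replicate block, the calls lost under other settings were JUND in CA1 against A10 with no filter (adjusted p = 0.0875) and limma-voom (0.062), FOSL1 in NeoT against A10 with only the libraries compared (0.0508), and FOSB in CA1 against T1 (0.0658) and in T1 against NeoT (0.0501) without both libraries that stood apart. The calls lost when 1 library was left out were those of JUND in CA1 against A10 and against T1, FOSB in CA1 against T1, FOSL1 in NeoT against A10 and FOSL2 in T1 against A10.

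The replicate number was also fitted as a block, although the labels do not say that it pairs the libraries. For 5 of 12 libraries, deviations from the line mean correlated best, on average, with the libraries of other lines that had their own number. With the block, edgeR called 9981 genes in NeoT against A10 (10144 without it), 7269 in T1 against A10 (7478), 10059 in CA1 against A10 (10224), 9541 in T1 against NeoT (9718), 9443 in CA1 against NeoT (9575) and 8799 in CA1 against T1 (8973). Of the 10 genes it called 7, 6, 8, 8, 6 and 10 in that order, JUND losing its call in CA1 against A10 (adjusted p = 0.075) and JUNB gaining one in CA1 against T1 (0.0482). EGR2 rested on 16 to 25 counts a line outside T1 and had a biological coefficient of variation of 32.1%, and the part of either in its uncalled differences was not tested.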

Other observations

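A few further immediate early genes are given here, chosen after their values were seen. NR4A1, a nuclear receptor gene, had 7.02 ± 1.19 CPM in NeoT, 6.52 ± 1.39 in T1 and 4.03 ± 0.426 in CA1, against 0.438 ± 0.0476 in A10, and was called higher in each (15.97-fold, 14.8-fold and 9.13-fold, edgeR adjusted p = 1.55e-10, 5.4e-10 and 5.17e-09). Its relative NR4A2 was graded as EGR1 was between the derived lines, with 38.2 ± 4.47 CPM in NeoT, 7.04 ± 0.255 in T1 and 2.69 ± 0.573 in CA1, but A10 was lowest, at 1.33 ± 0.581. PTGS2, the inducible cyclooxygenase gene, had 3.65 ± 0.959 CPM in NeoT, 28.75 ± 4.72 in T1 and 1.67 ± 0.193 in CA1, against 24.2 ± 2.67 in A10, so T1 and A10 stood together as they did for JUN. MYC had 1067 ± 112 CPM in NeoT, 403 ± 9.65 in T1 and 241 ± 2.996 in CA1, against 407 ± 16.3 in A10.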
